A study of Mus musculus with 48 samples.

Results

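Chromatin accessibility after 8 h of Activin was compared with that after 1 h of Activin in P19 cells, a mouse embryonic teratoma line that makes its own NODAL and GDF3. The comparison uses the 24 libraries of these 2 states, chosen by their labels, out of 48 in the series. By the labels each state has 12 libraries, 6 from each of 2 biological replicates, while the study's methods describe fewer sequenced samples, and how the labelled libraries relate to those could not be checked. In both states the cells were held overnight in 10 µM SB-431542, which blocks the receptor kinases that NODAL and Activin signal through, washed free of it, and given 20 ng/ml Activin in serum-containing medium for 8 h or for 1 h. The remaining states serve here only for orientation. Untreated cells signalled chronically through their own ligands and saw neither inhibitor nor added Activin, and the SB-431542 cells went through the same wash and then stayed in the inhibitor for 1 h more. Time on Activin and time since the wash into serum-containing medium were the same in each Activin state, so the 2 cannot be told apart. The libraries of a state were merged into 1 list of ATAC-seq peaks before deposit, so the lists hold no spread between replicates, no test or p-value between the states can be computed, and all differences given here are descriptions of merged lists. The 4 lists together cover 287329 regions, of which 254877 have a peak in the 8 h or the 1 h Activin list.

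ATAC-seq marks DNA that a transposase can reach, which in most cells means promoters, enhancers and sites held open by bound transcription factors. Activin and NODAL act through receptor kinases that phosphorylate SMAD2 and SMAD3, which enter the nucleus with SMAD4 and reach enhancers together with partners such as FOXH1. In pluripotent and teratoma cells the pathway first induces direct targets and feedback inhibitors (Lefty1, Lefty2, Smad7, Pmepa1) and later mesendoderm genes (Eomes, T), for which WNT signalling through β-catenin and TCF/LEF factors is also used. AP-1 is the FOS and JUN dimer made and activated by serum and stress signals, and TEAD factors are the DNA-binding partners of YAP and TAZ.

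The sequences below are shown because exact matches to the letters of these factors differed in frequency between regions that were higher and lower at 8 h, and were picked from the named regions for holding them. All are from mm10 (GRCm38.p6 in RefSeq), on the plus strand for distal regions and on the strand of the gene for promoters, with matches on either strand in capitals. The letters searched on both strands were CTTTGAT for TCF/LEF, TGANTCA for AP-1 and CATTCCA for TEAD. The first 2 lie in regions with a higher level at 8 h. 4930548G14Rik names chr15:47354975-47355093 (TCF/LEF) and Arl15 chr13:113771457-113771562 (2 TCF/LEF matches).
4930548G14Rik: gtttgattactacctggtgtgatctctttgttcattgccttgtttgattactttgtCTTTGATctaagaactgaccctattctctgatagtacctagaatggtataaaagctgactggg
Arl15: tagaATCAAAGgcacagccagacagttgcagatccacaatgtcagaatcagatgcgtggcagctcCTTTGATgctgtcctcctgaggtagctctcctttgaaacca

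The next 6 lie in regions with a lower level at 8 h or, for Ddc, a peak at 1 h alone. Mycn names chr12:12983096-12983214 (TEAD and 2 AP-1 matches), Nox4 chr7:87241333-87241451 (AP-1, then TEAD), Mir7232 chr6:81562371-81562576 (3 AP-1 matches) and Ddc chr11:11939754-11939880, in an intron of Grb10 (2 AP-1 matches). The last pair are the bases before the start sites of Sprr1a (chr3:92485882-92486131, minus strand, 2 AP-1 matches) and Ankrd1 (chr19:36119845-36120094, minus strand, TEAD). Among 32851 RefSeq promoter windows of 300 bases, 7.81% held the AP-1 letters and 4.29% the TEAD letters.
Mycn: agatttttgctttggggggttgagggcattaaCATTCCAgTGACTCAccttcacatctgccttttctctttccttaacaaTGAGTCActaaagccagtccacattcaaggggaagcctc
Nox4: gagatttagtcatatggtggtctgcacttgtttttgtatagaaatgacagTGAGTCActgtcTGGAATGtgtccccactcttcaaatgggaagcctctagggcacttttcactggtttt
Mir7232: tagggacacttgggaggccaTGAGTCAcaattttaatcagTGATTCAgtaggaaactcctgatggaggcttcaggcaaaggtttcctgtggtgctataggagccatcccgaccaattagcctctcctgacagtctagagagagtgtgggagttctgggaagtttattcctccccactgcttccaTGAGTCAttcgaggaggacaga
Ddc: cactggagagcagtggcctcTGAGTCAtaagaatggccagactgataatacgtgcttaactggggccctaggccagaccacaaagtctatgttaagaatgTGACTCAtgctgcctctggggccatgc
Sprr1a: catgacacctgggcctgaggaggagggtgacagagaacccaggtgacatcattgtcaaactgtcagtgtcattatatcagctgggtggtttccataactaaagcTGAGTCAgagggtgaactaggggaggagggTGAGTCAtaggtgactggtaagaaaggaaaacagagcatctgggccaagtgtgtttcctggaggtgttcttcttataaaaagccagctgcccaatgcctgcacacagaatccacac
Ankrd1: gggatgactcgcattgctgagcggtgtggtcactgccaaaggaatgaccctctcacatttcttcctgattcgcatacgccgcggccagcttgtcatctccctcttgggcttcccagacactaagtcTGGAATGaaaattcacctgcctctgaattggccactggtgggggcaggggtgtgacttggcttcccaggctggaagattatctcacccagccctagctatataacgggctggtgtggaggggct

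Regions were read by 3 measures. A region is present in a list when a peak of that list overlaps it by at least 1 bp, its level is the fold enrichment of its highest peak (column 7, the mean pileup over the local background, as the peak caller gave it), and its width is the summed length of its peaks. The caller averages column 7 over the whole peak, so a level and a width of the same peak are not independent of each other. The 8 h list holds 209212 peaks over 161 Mb and the 1 h list 233336 peaks over 186 Mb. Median widths are 562 bp at 8 h and 590 bp at 1 h, and median fold enrichments 2.34 at 8 h and 2.15 at 1 h. The lists give no read counts, but the lowest local background, a measure of depth, was 85.4% as high in the 8 h list as in the 1 h list, and its part in the differences in list length was not tested. Promoters of marker genes were read against the labelled cell type. Peaks overlapped the promoters of 18 of 20 pluripotency genes at 8 h and 19 of 20 at 1 h, and those of 5 of 15 blood, muscle and liver genes at 8 h and 7 at 1 h, with none at Alb, Apoa1, Ttr, Ckm or Myog. Promoters of other embryonic lists were as often covered (18 of 18 neural genes and 23 of 24 mesendoderm genes at 8 h), so these peaks do not single out the cell type.

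Of the 254877 regions, 178699 (70.1%) had a peak in both lists, 25744 (10.1%) had one at 8 h alone and 50434 (19.8%) at 1 h alone. These shares carry 95% Wilson intervals of 9.98 to 10.2% and 19.6 to 19.9%, which like all such intervals here cover counting error only. With both lists cut to the same length by their q-values the counts were 34325 at 8 h alone and 35596 at 1 h alone, close to each other. Most of these peaks were weak, with median fold enrichments of 1.89 at 8 h and 1.76 at 1 h, and a -log10 q of 5 or more was reached by 6669 of the peaks at 8 h alone (25.9%) and 10271 of those at 1 h alone (20.4%).

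The remaining states set these groups apart. Of the 6669 stronger regions with a peak at 8 h alone, 73.2% had a peak in untreated cells and 44.4% with SB-431542, and 36.8% had one in untreated cells and none with SB-431542, against 7.96% for the opposite. Of the 10271 stronger regions with a peak at 1 h alone, 28.6% had a peak in untreated cells and 89.9% with SB-431542, and 2.24% were present in untreated cells and not with SB-431542, against 63.5% for the opposite. Among regions with a peak in both Activin lists, 93.5% were present in untreated cells and 95.9% with SB-431542. Peaks that appeared between 1 h and 8 h were thus more often shared with untreated cells, and peaks that disappeared were more often already there in the inhibitor. The lists also differed in depth and length. The lowest local background was 108% of the 1 h value with SB-431542 (234758 peaks) and 91.6% in untreated cells (220004 peaks). The 8 h and untreated lists were thus the shallower and shorter ones, and the part of depth in these shares was not tested.

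Named by the gene with the nearest start site, the strongest regions with a peak at 8 h alone lay near Csmd1 (fold enrichment 7.75 at 8 h and 4.66 in untreated cells, chr8:17834860-17835739), Mir101b (6.47 and 4.56), Dapk1, a death-associated kinase (5.81 and 3.59), Gm41062 (5.55 and 4.72), Cdc7, a kinase that starts DNA replication (5.32 and 2.81), Samd5 (4.79 and 4.33), Mir146b (4.44 and 2.17), Oxr1, an oxidation resistance gene (3.54 and 2.18), and Fam171b (3.46 and 2.71). All 9 had a peak in untreated cells, and those near Samd5, Mir146b and Gm41062 had one with SB-431542, at 1.70, 1.62 and 1.61. The region of highest score in this group, 39.8 kb from Gm30794, had a fold enrichment of only 1.09 over a background of 99762 reads per bp and no peak in any other list.

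At 1 h alone, 4 of the 10 regions with the highest scores lay in ordinary background. They were near Gm15679 (fold enrichment 6.48 at 1 h and 7.97 with SB-431542), Ddc within Grb10 (4.69 and 4.43), Noct, a circadian deadenylase gene (3.50 and 3.45), and 0610040F04Rik in an exon of Bhlhe40 (2.81 and 2.82). These 4 had no peak in untreated cells. The other 6, near D6Ertd474e, Chd7, Arl8b, Lat2, Cntn4 and Gm527, had fold enrichments of 1.21 to 1.37 over backgrounds of 4443 to 32222 reads per bp. Such regions were few, since among single-list regions with a -log10 q of 20 or more the fold enrichment was under 1.5 in 4 of 254 at 8 h alone and 16 of 530 at 1 h alone.

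Where both lists had a peak, levels were compared as the log2 ratio of column 7, 8 h over 1 h, less its median over all shared regions (0.05), and a region was called higher or lower at 0.5 or more in size, a 1.41-fold difference. Of the 178699 shared regions 5882 (3.29%) were called higher at 8 h and 4525 (2.53%) lower. A difference of at least 2-fold was found in 426 higher and 411 lower regions. Regions called higher had median fold enrichments of 3.91 at 8 h and 2.32 at 1 h, with 3.38 in untreated cells and 2.63 with SB-431542. Regions called lower had medians of 2.20 at 8 h and 3.48 at 1 h, with 2.32 in untreated cells and 3.59 with SB-431542. In both groups the median at 1 h lay nearer to that with SB-431542 than the median at 8 h did.

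Untreated over SB-431542 shares no library with 8 h over 1 h Activin and reads the same regions in other libraries. It does not remove the time since the wash, since SB-431542 cells, like 1 h Activin cells, were 1 h past it. Untreated cells are not described as washed. Depth also ran the same way in both comparisons, since the untreated list was shallower than the SB-431542 list and the 8 h list shallower than the 1 h list. The part of depth in the shares below was not tested. Over 185553 regions with a peak in both of those lists, 2.78% were called higher in untreated cells and 3.55% lower. Among regions called higher at 8 h that could be read there (5550), 31.2% were higher in untreated cells and 0.414% lower, with a median log2 ratio of 0.34. Among those called lower at 8 h (3768), 0.159% were higher in untreated cells and 61.6% lower, with a median of -0.60. A further 16.6% of the regions called lower had no peak in untreated cells at all, against 6.51% of all shared regions, and 5.05% of the regions called higher had none with SB-431542, against 4.05%.

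The calls also varied with the level with SB-431542. A region had to keep a peak at 8 h to be counted here. Regions of low level (1.26 to 1.94 in the lowest group) thus had little room to be called lower, and the part of this in the shares was not tested. When shared regions with such a peak were split by that level into 5 groups of like size, 0.102% of the lowest group were called lower at 8 h, 0.627%, 2.68% and 5.14% of the next 3, and 4.62% of the highest. Calls of higher peaked in the middle, at 1.99%, 3.58%, 4.84%, 3.77% and 2.11%.

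Among regions with a -log10 q of 5 or more in both lists, the largest distal increase lay in an intergenic region 18.7 kb from A930001A20Rik (chr3:14951595-14953402), with a fold enrichment of 8.61 at 8 h and 2.46 at 1 h, 3.64 in untreated cells and 2.32 with SB-431542. Its levels were averaged over unlike widths, 490 bp at 8 h and 1682 bp at 1 h. A region 46.6 kb upstream of Enpp1, an ectonucleotide pyrophosphatase, had 7.30 at 8 h and 2.15 at 1 h, with 3.27 in untreated cells and 2.40 with SB-431542. The region 294 kb upstream of Gm30957 had 9.70 at 8 h and 2.96 at 1 h. That 732 kb downstream of 4930548G14Rik, with TCF/LEF letters, had 9.07 at 8 h and 2.79 at 1 h, and that 22.9 kb upstream of Arl15, an ARF-like GTPase, with 2 TCF/LEF matches, had 7.57 at 8 h and 2.36 at 1 h and no peak with SB-431542.

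The remaining 5 of the 10 largest distal increases lay near Agtr1b, an angiotensin receptor (9.46 at 8 h and 2.84 at 1 h), 1700025O08Rik (8.93 and 2.79), Vstm2a (7.51 and 2.30), Dmrt1i in an intron of Baiap2l1 (7.22 and 2.26) and Armc1 (7.06 and 2.22). The peak near Agtr1b measured 702 bp at 8 h and 1337 bp at 1 h. Those near 1700025O08Rik (899 and 1621 bp) and Vstm2a (453 and 1865 bp) were likewise narrower at 8 h. Apart from these and A930001A20Rik, the 10 had wider peaks at 8 h. In all 10 the untreated level stood between the 8 h and the 1 h level, from 3.27 to 5.53. None of the 10 held the AP-1 letters in its central 300 bp, and 3 held those of TCF/LEF.

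The largest distal decrease was 41.3 kb upstream of Mycn, the MYC family gene of embryonic and neural cells (chr12:12982799-12983535). Its fold enrichment was 2.17 at 8 h and 6.63 at 1 h, with no peak in untreated cells and 5.18 with SB-431542. An intronic region of Aspa, the aspartoacylase gene, had 2.32 at 8 h and 6.89 at 1 h, no untreated peak and 7.34 with SB-431542. In an intron of Map2k6, a kinase that activates p38, the region nearest to Gm11682 had 2.98 at 8 h and 8.01 at 1 h, with 2.09 in untreated cells and 8.52 with SB-431542. A region 5.29 kb upstream of Nox4, an NADPH oxidase gene, had 2.19 at 8 h and 5.79 at 1 h, and one 333 kb from Mir7232 had 2.23 at 8 h and 5.81 at 1 h, both without a peak in untreated cells.

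The other 5 largest decreases were in an intron of Eipr1 (2.71 at 8 h and 7.82 at 1 h), in an intron of Rps6ka2 nearest to Tcp10a (2.98 and 7.95), near Fmr1os (2.53 and 6.58), near Mbtps2, the site-2 protease gene (2.28 and 6.30), and near Adamts5, an aggrecanase gene (2.15 and 5.66). The untreated level of the 10, where there was a peak, was 1.91 to 3.07, and the level with SB-431542 was 5.18 to 8.52. AP-1 letters stood in the central 300 bp of 5 of the 10, and TEAD letters in 3. The plot of these 20 regions shows the 1 h and SB-431542 points close to each other. Among the decreases the untreated points, where present, lie by the 8 h points. Among the increases they lie between the 8 h and the 1 h points, mostly nearer to the 1 h points.

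**Figure D1:**
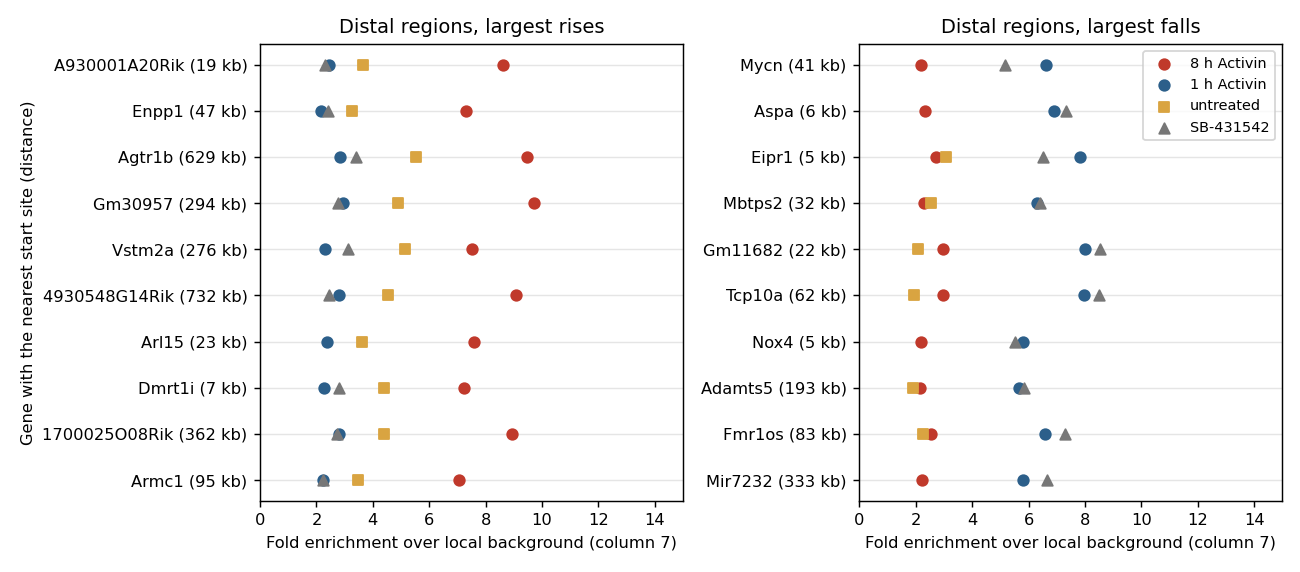
Fold enrichment over the local background (column 7, horizontal axis) in the 4 merged lists for the 10 distal regions with the largest increase (left) and the 10 with the largest decrease (right), 8 h over 1 h Activin, each named by the gene with the nearest start site and its distance. Each symbol is 1 merged list and a missing symbol means no peak. On the left the 8 h symbol lies between 7.06 and 9.70 and the 1 h symbol between 2.15 and 2.96. On the right the 8 h symbol lies between 2.15 and 2.98 and the 1 h symbol between 5.66 and 8.01.

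Promoters differed least. A region counted as a promoter when a RefSeq start site had the region's centre within 1000 bp on its upstream side or 100 bp on its downstream side, and as distal otherwise. Of 9391 shared promoter regions 50 (0.532%, interval 0.404 to 0.701%) were called higher at 8 h and 76 (0.809%, 0.647 to 1.01%) lower, against 5832 (3.44%) higher and 4449 (2.63%) lower of 169308 distal regions. The order of the 2 promoter counts turned round, to 70 higher and 48 lower, when the median was not subtracted. Peaks in 1 list alone were as uneven, at 2.47% for 8 h and 2.93% for 1 h among promoters and 10.4% and 20.5% among distal regions. Promoters of coding genes were called higher in 0.356% and lower in 0.641% of cases, and those of other genes in 2.07% and 2.28%. Shared promoter regions were also wider and stronger, with medians at 8 h of 1343 bp and 4.33, against 607 bp and 2.44 for distal regions. The part of width and level in the shares called was not tested.

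Over all shared regions 3.86% of introns were called higher and 2.91% lower, against 3.34% and 2.57% of intergenic regions and 1.46% and 1.12% of exons. The order of introns and intergenic regions turned round among regions with a -log10 q of 5 or more in both lists, at 4.04% higher and 2.59% lower for introns and 4.43% and 2.70% for intergenic regions. By distance from the nearest start site, calls of higher were 0.465% within 1 kb, 2.79% from 1 to 10 kb, 3.83% from 10 to 50 kb, 3.94% from 50 to 200 kb and 3.24% beyond. Calls of lower in the same bins were 0.666%, 2.91%, 3.07%, 2.86% and 2.02%. Peaks present at 8 h alone took 2.77%, 12.5%, 12.5%, 10.1% and 8.11% of these bins, and those at 1 h alone took 3.26%, 14.7%, 17.7%, 23.0% and 25.3%. The share at 1 h alone was thus largest far from genes. Shared regions beyond 200 kb also had the lowest median levels, 2.14 at 8 h and 2.07 at 1 h, against 4.19 and 4.24 within 1 kb. The part of level and depth in these shares was not tested. Among regions with a -log10 q of 5 or more in both lists, calls of higher were 0.359%, 2.75%, 3.94%, 4.91% and 5.64% in these bins, so that the far bin was then the highest.

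**Figure D2:**
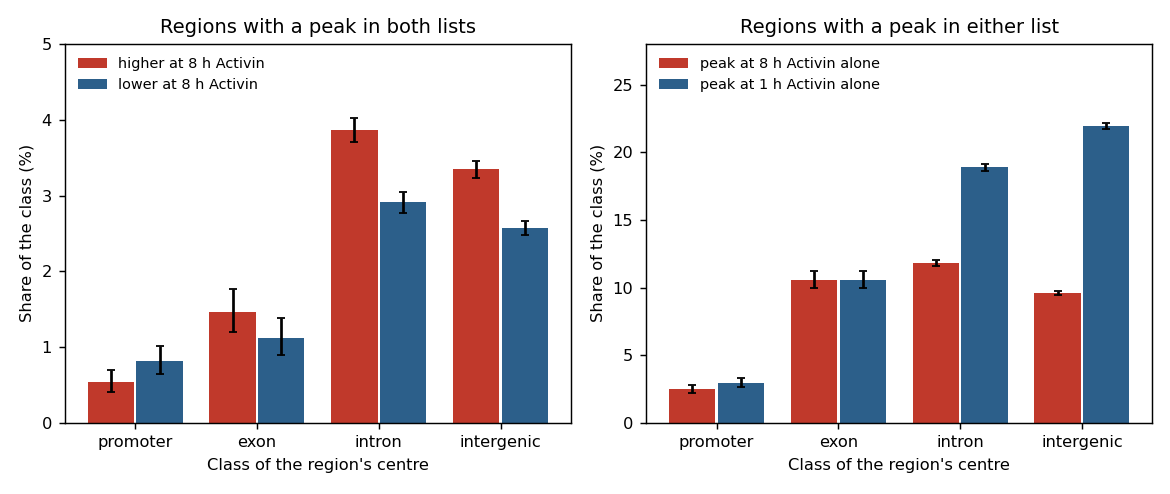
Share of regions (percent, vertical axes from 0) called higher or lower at 8 h than at 1 h of Activin among regions with a peak in both lists (left), and share with a peak at 8 h alone or 1 h alone among regions with a peak in either list (right), by the class of the region's centre. Bars are counts over merged lists and error lines are 95% Wilson intervals, which cover counting error only. Promoters have the lowest share in every group, 0.532% and 0.809% on the left and 2.47% and 2.93% on the right.

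The promoter regions with the largest increase included those of Ccl20, a chemokine gene (fold enrichment 7.69 at 8 h and 4.37 at 1 h, 6.16 in untreated cells and 5.20 with SB-431542, chr1:83116310-83117176), Far1os (7.99 and 4.47), Ppp2r2b, a regulatory subunit of phosphatase PP2A (5.69 and 3.29), Mast4, a microtubule-associated kinase (5.00 and 2.99), and the olfactory receptor gene Olfr583 (4.70 and 2.82). The other 5 belonged to genes with predicted or provisional names, with 4.05 to 7.06 at 8 h and 2.28 to 4.16 at 1 h. None of the 10 held the AP-1, TEAD or TCF/LEF letters in its central 300 bp. Some had unlike widths in the 2 lists. Olfr583 measured 470 bp at 8 h and 2282 bp in 2 peaks at 1 h. Ppp2r2b had 989 bp in 2 peaks at 8 h and 2541 bp at 1 h, and Mast4 2827 bp in 2 peaks at 8 h and 3763 bp at 1 h. The rest had width ratios, 8 h over 1 h, of 0.941 to 1.08.

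The largest promoter decrease was at Rbfox2, an RNA splicing factor (4.10 at 8 h and 8.35 at 1 h, 3.69 in untreated cells and 5.98 with SB-431542, chr15:77245316-77246329). It was followed by Cldn5, a tight junction claudin (2.35 at 8 h and 4.28 at 1 h), Platr21 (2.34 and 4.25), 1700025O08Rik (3.08 and 5.35) and Lpp, a LIM protein of cell adhesions (2.64 and 4.59). Sprr1a, which encodes a protein of the cornified envelope, had 2.43 at 8 h and 4.19 at 1 h, with 2.03 in untreated cells and 5.12 with SB-431542. Ankrd1, an ankyrin repeat gene known as a target of YAP and TEAD, had 2.20 at 8 h and 3.70 at 1 h, no peak in untreated cells and 3.68 with SB-431542. Sh3kbp1, Mir6387 and Cldn34c4 completed the 10, of which 5 held AP-1 and 4 TEAD letters. The Rbfox2 peak measured 926 bp at 8 h and 421 bp at 1 h, and the rest had width ratios, 8 h over 1 h, of 0.532 to 1.05. Over all 76 promoter regions called lower, 22.4% held AP-1 letters (interval 14.5 to 32.9%) and 13.2% TEAD letters (7.31 to 22.6%), against 5.14% and 2.99% of all shared promoters.

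Promoters of coding genes with a peak in 1 list alone and a -log10 q of 5 or more numbered 36 at 8 h and 64 at 1 h. At 8 h alone they included Flacc1 (fold enrichment 4.84 at 8 h, 2.59 in untreated cells and 2.17 with SB-431542; another Flacc1 promoter region had a peak at 1 h alone, at 2.69), Svs1, a seminal vesicle protein (4.34 at 8 h and 2.91 in untreated cells), and Pglyrp1, a peptidoglycan recognition protein (3.01 at 8 h, 1.86 in untreated cells and 1.70 with SB-431542). At 1 h alone they included Mobp, a myelin gene (4.12 at 1 h and 4.04 with SB-431542), Fam71e2 (3.12 and 3.74 in the same lists), Dido1 (2.88 and 3.72), and Emp3, an epithelial membrane protein (1.92 and 1.97), all without a peak in untreated cells. Examples of this kind were taken from the highest scores after the values were seen.

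Peaks were slightly narrower at 8 h, and the part of depth in this was not tested. By distance from a start site the median width ratio was 0.997 within 1 kb and 0.930 beyond 200 kb. Over the 171821 shared regions with exactly 1 peak in each list the median width was 617 bp at 8 h and 686 bp at 1 h, and the median of the ratio, 8 h over 1 h, was 0.978, with 0.995 at promoters and 0.976 at distal regions. Regions called higher were wider at 8 h, with medians of 624 bp and 575 bp at 1 h and a ratio of 1.11, and regions called lower were narrower, with 474 bp and 626 bp and a ratio of 0.790. A ratio of at least 1.5 was found in 21.4% of regions called higher, 9.18% of those called lower and 8.30% of those not called. A ratio of at most the inverse was found in 15.8%, 32.4% and 15.3%. Across all 171821 regions, which share their libraries and are not replicates, Pearson's r between the log2 width ratio and the log2 ratio of column 7 was 0.06 and Spearman's rho 0.09.

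The number of peaks in a region also differed with its call. A region's level is that of its highest peak, so the number of peaks and the call are not independent of each other. Of the regions called higher 259 had several peaks at 8 h and 1 at 1 h and 56 the reverse, and of those called lower 39 had several at 8 h and 1 at 1 h and 139 the reverse. Over all shared regions the numbers were 2871 and 2311. Most of the 10 largest differences of width carried little difference of level. A region near Arl5b spanned 2951 bp at 8 h (fold enrichment 2.18) and 200 bp at 1 h (2.42), and one near Hpcal1 3220 bp at 8 h (2.36) and 285 bp at 1 h (2.26). In the other direction, an intronic region of Atp10b measured 217 bp at 8 h (2.27) and 2641 bp at 1 h (2.02), and one near Npy2r 228 bp at 8 h (2.72) and 2739 bp at 1 h (2.65). An exception was a region near Pcolce2, 280 bp wide at 8 h and 2777 bp at 1 h, whose level was 3.56 at 8 h and 2.13 at 1 h. Among regions of 1 peak in each list whose width ratio stayed within 1.5 times, a restriction chosen after the data were seen, 3463 were called higher and 2520 lower.

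**Figure D3:**
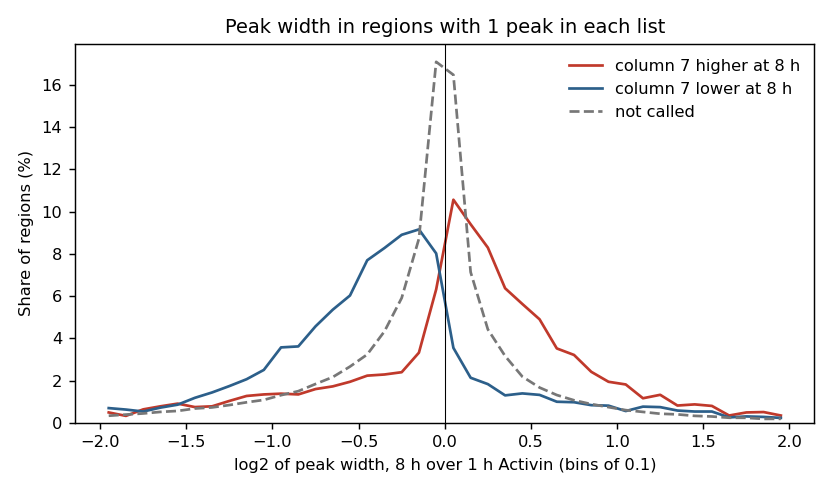
Share of regions (percent, vertical axis) by the log2 ratio of peak width, 8 h over 1 h Activin, in bins of 0.1, for shared regions with 1 peak in each list that were called higher, called lower or not called by column 7. Lines are counts over merged lists. The line of regions called lower lies to the left of 0 (median ratio 0.790) and that of regions called higher to the right (median ratio 1.11), while regions not called centre near 0 (median ratio 0.979).

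Short sequence motifs were counted in the central 300 bp of each distal region, on both strands and as exact letters. AP-1 letters were present in 34.2% of regions called lower (interval 32.9 to 35.6%), 7.65% of those called higher (6.99 to 8.36%) and 9.63% of those not called. The share was 49.1% (44.3 to 54.0%) among the regions lower by at least 2-fold. With a peak in 1 list alone, AP-1 letters were found in 6.96% of distal regions for 8 h and 21.5% for 1 h, and in 7.15% and 41.8% of those with a -log10 q of 5 or more. TEAD letters were in 9.24% of regions called lower, 4.72% of those called higher and 5.27% of those not called. The SOX letters AACAATGG were in 3.19%, 1.27% and 1.61%.

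Regions called higher more often held the letters of the WNT-responsive factors. The TCF/LEF letters CTTTGAT were in 10.6% of regions called higher (9.87 to 11.4%), 4.56% of those called lower and 5.10% of those not called. Among regions higher by at least 2-fold the share was 14.8%. In distal regions with a peak at 8 h alone and a -log10 q of 5 or more TCF/LEF letters were in 9.97%, against 4.80% of those at 1 h alone.

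Letters of NODAL partners differed less. Those searched for FOXH1, AATNNACA, were in 22.1% of regions called higher, 17.5% of those called lower and 17.6% of those not called, and the FOX letters GTAAACA in 5.92%, 4.23% and 4.28%. The palindromic SMAD pair GTCTAGAC was rare everywhere, at 0.343%, 0.539% and 0.273%. The CTCF letters CCACNAGG, searched as a set of architectural sites, were in 3.70%, 5.10% and 6.31%, and the E-box CAGGTG bound by ZEB and SNAI factors in 24.1%, 18.2% and 20.2%. GC content over these windows was 45.2% in regions called higher, 46.8% in those called lower and 47.1% in those not called, and its part in the shares was not tested. After the data were seen, 3 more strings were counted. CTTTGAA, a close relative of the TCF/LEF letters, was in 11.4%, 6.90% and 6.47%, AGGTGNTA in 5.37%, 2.94% and 2.98%, and TCAAGGTCA, the letters of nuclear receptors such as ESRRB, in 1.80%, 1.01% and 0.94%.

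**Figure D4:**
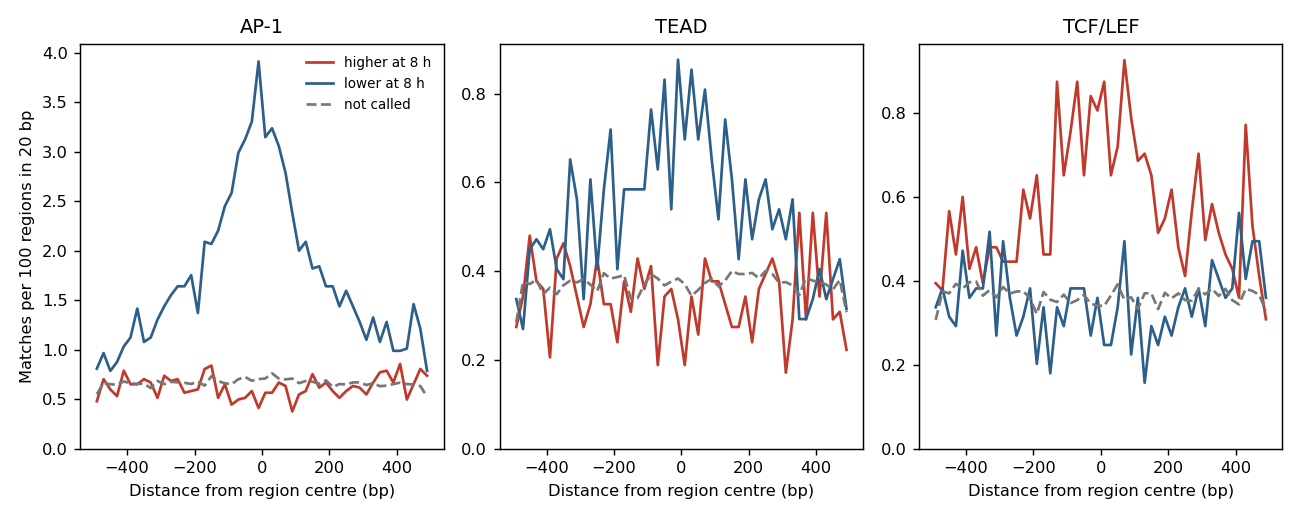
Matches per 100 distal regions in windows of 20 bp (vertical axes from 0, with a scale of their own in each panel) by distance from the region's centre in bp, for the AP-1, TEAD and TCF/LEF letters, in regions called higher, called lower and not called. AP-1 matches gather at the centre of the regions called lower, and TCF/LEF matches around the centre of the regions called higher. The central 300 bp hold AP-1 letters in 34.2% of the regions called lower and TCF/LEF letters in 10.6% of those called higher.

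The number of matches graded the calls. Of distal shared regions with no AP-1 match 1.92% were called lower, of those with 1 match 7.96%, with 2 matches 19.3% and with 3 or more 34.8% (31 of 89, interval 25.7 to 45.2%). The share called higher in these groups was 3.54%, 2.65%, 1.75% and 1.12%. With no, 1 and 2 TCF/LEF matches 3.25%, 6.85% and 9.81% were called higher (26 of 265 with 2 matches). Regions that held both AP-1 and TCF/LEF letters (1003) were called higher in 5.18% of cases and lower in 7.88%. For AP-1 and TEAD together 12.6% were called lower, for AP-1 alone 8.58%, for TEAD alone 3.55% and for neither 1.83%.

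**Figure D5:**
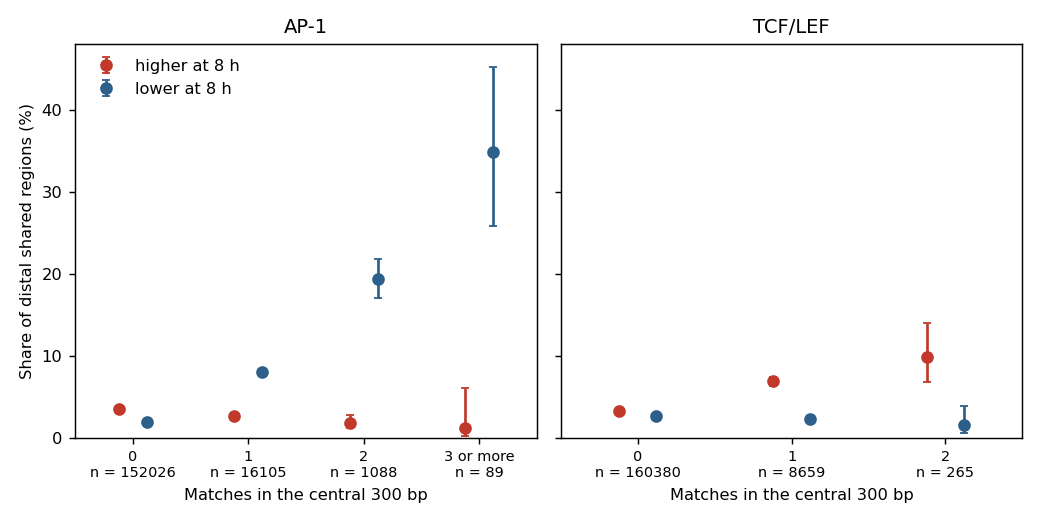
Share of distal shared regions called higher or lower at 8 h than at 1 h of Activin (percent, vertical axis) by the number of exact matches to the AP-1 or TCF/LEF letters in the central 300 bp (horizontal axis, with the number of regions). Points are shares over merged lists and lines are 95% Wilson intervals. Lower calls go up with AP-1 matches to 34.8%, and higher calls with TCF/LEF matches to 9.81%.

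The same letters were read in untreated over SB-431542. Of 171562 distal regions with a peak in both of those lists 2.94% were called higher in untreated cells and 3.77% lower. With AP-1 letters the shares were 2.25% and 9.73%, with TEAD letters 2.39% and 6.49%, and with TCF/LEF letters 4.11% and 3.47%. AP-1 and TEAD letters thus went with lower calls in both comparisons, while TCF/LEF letters stood apart from the background by about 1 percentage point in untreated cells. Both comparisons set cells 1 h past the wash against cells that were not, and a deeper list against a shallower one.

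At loci that the study followed, most differences lay at distal regions. An intronic region of 4933432G23Rik 44.9 kb upstream of Eomes, the T-box gene of mesendoderm (chr9:118432627-118433852), had a fold enrichment of 8.08 at 8 h and 3.95 at 1 h, with 7.24 in untreated cells and 3.25 with SB-431542, and its width was 1226 bp at 8 h and 521 bp at 1 h. A region 13.0 kb upstream of T, the Brachyury gene of mesoderm (chr17:8420756-8422021), had 3.28 at 8 h and 2.17 at 1 h, with 2.36 in untreated cells and 2.21 with SB-431542. Its width was 1266 bp at 8 h and 221 bp at 1 h. At Wnt8a, a WNT ligand of the primitive streak, a region 8.48 kb downstream of the start site had 3.65 at 8 h and 2.17 at 1 h, with 3.33 in untreated cells and 2.13 with SB-431542. It held 2 peaks of 1293 bp together at 8 h and 1 peak of 3445 bp at 1 h. Axin2, a WNT target that restrains β-catenin, had 3 regions called higher within 50 kb, at 46.8 kb upstream (4.99 at 8 h and 2.66 at 1 h), 22.2 kb upstream (3.56 and 2.38) and 42.2 kb downstream (3.10 and 1.94). The region 46.8 kb upstream measured 910 bp in 2 peaks at 8 h and 2290 bp in 1 peak at 1 h.

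Smad7, the inhibitory SMAD and an early target, carried both directions in 1 intron. A region 6.23 kb downstream of its start site had 2.44 at 8 h and 1.39 at 1 h, with 1.86 in untreated cells and no peak with SB-431542. The neighbouring region at 8.32 kb, which holds AP-1 and TEAD letters, had 1.73 at 8 h and 3.19 at 1 h, with 1.69 in untreated cells and 3.51 with SB-431542. Pmepa1, a transmembrane inhibitor of the pathway, had 2 regions called lower, 11.9 kb downstream (2.05 at 8 h and 3.06 at 1 h) and 5.21 kb upstream (1.94 and 2.98), the last without a peak in untreated cells. Within 50 kb of Pmepa1, 5 regions had a peak at 8 h alone and 1 at 1 h alone. A region 0.513 kb downstream of its start site, not called, had 3.72 at 8 h (1065 bp) and 2.79 at 1 h (2392 bp). In Nodal, an intronic region 6.01 kb from the start site had 2.07 at 8 h and 3.03 at 1 h, with 2.56 in untreated cells and 4.53 with SB-431542.

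Notum, an enzyme that inactivates WNT ligands, had a region called lower in an exon (1.95 at 8 h and 2.79 at 1 h), and a region 35.5 kb from Tbx3 had 3.35 at 8 h and 4.88 at 1 h. Within 60 kb of Lefty1, Lefty2, Wnt3 and Trh no region was called in either direction. The largest ratios there were -0.40 at Lefty1 and Lefty2 (a region they share, 2.73 at 8 h and 3.48 at 1 h), 0.40 in an intron of Wnt3 (2.54 at 8 h and 1.86 at 1 h) and -0.24 at Trh (4.14 at 8 h and 4.73 at 1 h). Promoter regions of Lefty1, Smad7, Eomes, T, Wnt8a and Nodal had log2 ratios of -0.10 to 0.23, the highest at T (2.37 at 8 h and 1.94 at 1 h), and none was called. Within 50 kb of all 13 loci 8 regions were called higher and 6 lower of 165 shared, and as the study chose these loci on these cells their count is no independent evidence.

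Other genes of the pathways were read through lists, each as regions within 50 kb of a start site, beside 2.95% higher and 2.59% lower over all RefSeq genes (2575 and 2265 of 87292 regions). Of all regions in these windows with a peak in either list 11.1% had one at 8 h alone and 14.8% at 1 h alone. Among 24 mesendoderm genes 9 of 197 shared regions were called higher and 0 lower, and of 257 regions 16.0% had a peak at 8 h alone and 7.39% at 1 h alone. They lay near Chrd, a BMP antagonist of the node (3.40 at 8 h and 1.60 at 1 h), Mixl1, a homeobox gene of the streak (6.42 and 3.18), Gsc, the goosecoid homeobox gene (3.84 and 2.55), Fgf8 (4.00 and 2.15), Hhex, a homeobox gene of anterior endoderm (5.87 and 4.00 upstream, 3.35 and 2.07 downstream), and the loci given above. The lowest ratio on this list was -0.47, near Foxa2 (3.56 at 8 h and 4.77 at 1 h). Within 10 kb of these genes 0 of 66 shared regions were called higher and 0 lower.

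Among 24 WNT targets and feedback genes 10 of 211 regions were called higher and 3 lower, and of 289 regions 16.6% were present at 8 h alone and 10.4% at 1 h alone. Beside Axin2, regions called higher lay near Apcdd1, a WNT inhibitor (6.25 at 8 h and 3.02 at 1 h), Cdx4, a caudal homeobox gene (5.96 and 2.91), Lef1 (4.44 and 2.93, and 2.44 and 1.52, both in its introns), Sp5, a repressor induced by WNT (2.76 and 1.73), and Lgr5, a receptor for R-spondins (2.89 and 1.64). A second region of Lgr5 was called lower (2.34 at 8 h and 3.84 at 1 h, with AP-1 letters), as was one in an intron near Ccnd1 (1.74 at 8 h and 2.42 at 1 h). The promoter region of Dkk4, a secreted WNT inhibitor, had 3.30 at 8 h and 2.25 at 1 h, a log2 ratio of 0.50, with widths of 1480 bp at 8 h and 306 bp at 1 h.

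WNT ligands and receptors (35 genes) gave 6 higher and 8 lower of 289 regions. The promoter region of Wnt3a, a ligand of the posterior embryo, had 3.45 at 8 h and 2.17 at 1 h, with 3.12 in untreated cells and 3.36 with SB-431542. Wnt5a, a ligand of the non-canonical branch, had 2 regions called higher (3.88 at 8 h and 2.09 at 1 h, and 4.58 at 8 h and 2.67 at 1 h) and 1 lower (2.46 at 8 h and 4.10 at 1 h). Among β-catenin partners (16 genes) 5 were higher and 3 lower of 153, with Tcf7l1 at 3.42 at 8 h and 1.98 at 1 h (a call lost on an estimated pileup) and a region 27.0 kb upstream of Ctnnb1, the β-catenin gene, at 2.21 at 8 h and 3.38 at 1 h.

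The NODAL and Activin pathway itself (25 genes) gave 4 higher and 9 lower of 221 regions. A region 36.0 kb from Bambi, a decoy receptor, had 5.27 at 8 h and 2.16 at 1 h, and one 28.7 kb upstream of Smad3 had 2.83 at 8 h and 1.73 at 1 h. A region 36.9 kb upstream of Smad2 had 1.70 at 8 h and 4.91 at 1 h, no peak in untreated cells and 5.49 with SB-431542, and holds TEAD letters. One near Acvr2b, a type II receptor, had 2.46 at 8 h and 4.30 at 1 h, with 2.67 in untreated cells and 6.35 with SB-431542. Tgif1, a corepressor of SMADs, had 3 regions lower (4.24, 1.71 and 1.85 at 8 h, against 6.62, 2.91 and 3.32 at 1 h) and 1 higher (7.41 at 8 h and 4.91 at 1 h).

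Immediate-early and YAP target genes (31) gave 6 higher and 12 lower of 293 regions, and of 376 regions 7.71% were present at 8 h alone and 14.4% at 1 h alone, the last close to the share over all genes. Regions called lower lay near Jun, an AP-1 subunit (1.88 at 8 h and 3.59 at 1 h, 26.1 kb downstream), Egr3 (3.64 and 5.88, with AP-1 letters), Ccn1, a matricellular target of YAP (3.72 and 6.87), and Ccn2, its relative (4.05 and 6.57, with AP-1 and TEAD letters), as well as at the promoter of Ankrd1. Ccn1 also had a region called higher (6.33 at 8 h and 4.01 at 1 h). Pluripotency genes (20) gave 5 higher and 10 lower of 192. A region near Prdm14 (3.87 at 8 h and 1.58 at 1 h) was called higher, and regions near Sox2 (1.59 at 8 h and 2.83 at 1 h), Klf5 (3.24 and 4.53) and Nr5a2 (3.77 and 5.38) lower.

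The FGF and ERK list (21 genes) gave 11 higher and 4 lower of 170. Among them were an intronic region of Etv1, an ETS factor of FGF signalling (5.68 at 8 h and 2.48 at 1 h), 3 regions of Spred1, an ERK pathway inhibitor (5.13, 3.36 and 5.32 at 8 h, against 2.57, 2.09 and 3.55 at 1 h), and introns of Fgfr1 (3.39 and 2.01) and Fgfr2 (4.58 and 2.88), while a region upstream of Fgfr3 had 2.61 at 8 h (2717 bp wide) and 5.01 at 1 h (405 bp), a call that was lost on an estimated pileup. Fgf3, Fgf4 and Fgf15 are neighbours and share 2 of the regions called higher. Counts for the remaining lists were 5 higher and 4 lower of 227 for BMP genes, 4 and 4 of 187 for neural genes, 5 and 3 of 124 for cadherin and EMT genes (including an intronic region of Fn1, fibronectin, at 3.79 at 8 h and 1.78 at 1 h, with 4.57 in untreated cells and 1.79 with SB-431542), 2 and 4 of 119 for blood, muscle and liver genes and 2 and 4 of 132 for housekeeping genes. All of these counts are small and no list was tested.

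Of 19633 coding genes with a region within 50 kb, 3041 had one called higher and 3042 one called lower. A surplus of at least 3 was found at 42 genes for higher and 29 for lower. By gene, the largest surplus of higher over lower regions within 50 kb was found at Btg1, an antiproliferative gene, with 5 of 9 shared regions higher and 0 lower (5.09 at 8 h and 2.62 at 1 h for the largest), and at the vomeronasal receptor gene Vmn1r207, with 5 of 8 (3.96 at 8 h and 2.01 at 1 h for the largest). Mbd5, Pex5l, Prickle1 of planar cell polarity, Robo2, an axon guidance receptor, and Syap1 had 4 higher and 0 lower each. Their shared regions numbered 18, 20, 28, 50 and 9 in that order. Presence did not always go the same way. Regions at 8 h alone and 1 h alone numbered 2 and 7 at Btg1 and 1 and 0 at Vmn1r207. They numbered 1 and 4 at Mbd5, 4 and 1 at Pex5l and 2 and 2 at Prickle1. At Robo2 they were 4 and 11, and at Syap1 0 and 1. A region in an intron of Mbd5 had 6.26 at 8 h and 2.42 at 1 h with no peak in SB-431542 cells. One in an intron of Cdk6, the cell cycle kinase, which had 3 higher regions, was at 5.91 at 8 h and 2.10 at 1 h, with 5.19 in untreated cells and 2.28 with SB-431542.

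In the other direction Slco1a5, an organic anion transporter, had 4 regions lower and 0 higher, the largest at 1.58 at 8 h and 3.52 at 1 h with AP-1 letters. Dusp10, a phosphatase of stress-activated MAP kinases, had 3 lower (1.83, 3.14 and 2.32 at 8 h, against 4.03, 5.25 and 3.35 at 1 h), the first with AP-1 and TEAD letters, and its levels were at most 2.48 in untreated cells and at least 3.61 with SB-431542. Col18a1, a basement membrane collagen, and Itga7, a laminin receptor subunit, also had 3 lower and 0 higher each. By chromosome, calls of higher took 2.26% to 4.36% of shared regions on chromosomes 1 to 19 and 5.94% on X, and calls of lower 2.10% to 3.10% and 3.64%.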

How the data were processed

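ATAC-seq was done by the authors on P19 cells, with 100000 cells per reaction. According to the study's methods and the labels, reads were trimmed with cutadapt 1.9.1, aligned to mm10 with BWA 0.6.2 and filtered, Picard merged the alignments of each state and removed duplicates, and MACS2 2.1.1.20160309 called broad peaks with no control library. Because replicates were merged before calling, their spread cannot be recovered. The deposited fold enrichment (column 7) is a ratio of mean pileup to local background. The deposited -log10 p-value and -log10 q-value, the last treated as a score because it is averaged over the peak, come from the caller's Poisson test of pileup against background, not from a test between states, and the lowest -log10 q was 1.02 at 8 h and 1.01 at 1 h. Read depth per state is not in the lists, so the lowest background, 21.0 reads per bp at 8 h and 24.6 at 1 h, was computed from the ratio and the p-value as a relative measure.

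Peaks of the 4 lists were merged into regions where they overlapped by at least 1 bp. Shared regions were called at a centred log2 ratio of 0.5 or more in size. Annotation used 45756 transcripts of 26180 RefSeq genes on GRCm38.p6. Intervals are 95% Wilson intervals. Motifs were 23 listed strings and 3 added after the data were seen, and 14 gene lists held 273 genes, of which 272 matched. Named regions are the 10 highest-scoring regions of each list alone, the 10 largest increases and decreases among distal and among promoter regions whose -log10 q reached 5 in both lists, the extremes at each locus the study followed and in each gene list, the genes with the largest surplus of calls in 1 direction, and the 5 largest width ratios each way. Other regions called near list genes and promoters in 1 list alone were picked after their values were seen. Members, lists, motifs and tests were chosen with earlier results of these data known. Scripts were tested on simulated data and used Python 3.11.15, numpy 2.4.6, pandas 2.3.3, scipy 1.17.1 and matplotlib 3.10.9. Results for some motifs and genes are not reported here. Alternatives covered the minimum q, list length, overlap, merging, scaling, promoter definition, gene window and motif window.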

Additional observations from a re-analysis of the deposited data

How the results depend on the processing

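No paired analysis was possible because each list merges the replicates of a state, and for the same reason no replicate could be left out. Counts of regions with a peak at 8 h alone were 6669 when that peak needed a -log10 q of at least 5, and counts at 1 h alone were 10271 with this rule and 24255 with that minimum in every list. Regions called higher and lower numbered 3918 and 2668 with the minimum in every list, 35529 and 34091 when a shift of 10 percentile points was the call, 9368 and 8787 on an estimated pileup (less its median log2 ratio of -0.16), and 3463 and 2520 among regions of similar width, the last setting being added after the data were seen. Without subtraction of the median the counts were 7747 and 3472, so the share of higher calls depends on this choice. Promoter counts, called higher and lower, were 89 and 117 with any overlap and 93 and 118 with a window from 2000 bp upstream to 500 bp downstream. Promoters with a peak at 8 h alone numbered 147 with a minimum -log10 q of 5 in every list, 51 with the minimum for that peak alone, 386 with any overlap and 576 with the wider window, and those at 1 h alone 95, 444 and 658 under the last 3 of these. The AP-1 share of distal regions called lower was 3.56 times that of regions not called, and 2.18 times when whole regions were searched. The cause of these shifts was not tested, beyond the fewer or more regions that each rule admits. Of the 76 named shared regions that were called, none turned in direction under the 5 other scalings, 4 were no longer called on the pileup (among them those near Tcf7l1, Fgfr3 and Zeb2) and 1 on the width-weighted mean. Among named regions not called, those near Lefty1, Trh, T, Nodal, Auts2 and Atp10b had the opposite sign on the pileup. Absence from a list means only that the caller's threshold was missed, and the part of depth in it was not tested.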
